A study of Homo sapiens with 9 samples.

Results

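The AP-1 genes of the FOS and JUN families were followed here through Jurkat cells that had been exposed to nanosecond electrical pulses or to heat. The members were FOS, FOSB, FOSL1, FOSL2, JUN, JUNB and JUND, chosen by name. Every probe set that the platform annotation listed under exactly 1 of these symbols was taken, which gave 17 probe sets of 7 genes, out of 54613 probe sets and 19775 genes on the arrays. A gene was represented by the probe set with the highest mean signal over the 9 arrays, and all other probe sets are given as well. Jurkat is an established line of human T lymphocytes, derived from a leukaemia. The 3 groups had 3 arrays each, labelled as biological replicates. The nsEP cells received 100 electrical pulses, each lasting 10 ns, at a field of 150 kV/cm. The sham cells went through the same handling in the same kind of cuvette with no pulse delivered, and the heat shock cells were warmed in such a cuvette in a water bath. All cells were grown and exposed in the same serum-supplemented medium, and RNA was collected 4 h after exposure. No source states that the replicates were separate cultures beyond the word biological, so p-values measure the spread between these arrays.

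AP-1 is a transcription factor made of a pair of proteins that hold on to each other through a leucine zipper and grip DNA with the basic stretch beside it. The JUN proteins pair with each other or with a FOS protein, whereas the FOS proteins need a JUN partner. FOS, FOSB, JUN and JUNB are immediate early genes, which resting cells transcribe little and switch on within minutes of a growth signal or a stress, and whose messages are short-lived. JUND is transcribed steadily in most cells, and FOSL1 and FOSL2 usually follow later. Stress kinases of the MAPK family act on the factors bound at these promoters and on the JUN protein itself. In T cells AP-1 works together with NFAT at cytokine genes after the antigen receptor has been engaged.

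The promoters of the 4 genes that rose under both exposures are shown because the members' transcript levels are what changed. These promoters were searched for letter matches to short motifs. They are taken from RefSeq on GRCh38.p14, where 6 of the 7 members matched, and run from 250 bases before the annotated start to 50 bases after it. Capitals mark the matches to the motifs described in the next paragraph. FOS lies at chr14:75278578-75278877 on the plus strand, FOSB at chr19:45467746-45468045 on the plus strand, JUN at chr1:58783998-58784297 on the minus strand and JUND at chr19:18281573-18281872 on the minus strand, each printed 5′ to 3′ in the direction of its gene.
FOS: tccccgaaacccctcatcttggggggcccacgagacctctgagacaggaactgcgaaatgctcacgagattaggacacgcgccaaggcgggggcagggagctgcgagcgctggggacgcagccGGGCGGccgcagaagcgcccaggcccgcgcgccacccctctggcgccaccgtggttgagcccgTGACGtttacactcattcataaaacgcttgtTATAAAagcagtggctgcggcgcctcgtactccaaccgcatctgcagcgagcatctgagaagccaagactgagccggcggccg
FOSB: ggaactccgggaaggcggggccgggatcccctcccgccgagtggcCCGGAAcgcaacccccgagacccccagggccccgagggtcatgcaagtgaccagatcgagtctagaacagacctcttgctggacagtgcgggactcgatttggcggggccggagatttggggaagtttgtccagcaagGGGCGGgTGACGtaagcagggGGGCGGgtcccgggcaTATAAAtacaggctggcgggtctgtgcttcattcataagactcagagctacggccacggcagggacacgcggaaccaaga
JUN: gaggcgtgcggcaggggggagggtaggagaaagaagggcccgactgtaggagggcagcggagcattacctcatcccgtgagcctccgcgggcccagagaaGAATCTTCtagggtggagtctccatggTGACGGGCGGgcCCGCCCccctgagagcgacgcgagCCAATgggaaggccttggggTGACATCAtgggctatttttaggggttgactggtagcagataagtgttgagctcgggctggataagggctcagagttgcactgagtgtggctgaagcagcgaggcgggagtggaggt
JUND: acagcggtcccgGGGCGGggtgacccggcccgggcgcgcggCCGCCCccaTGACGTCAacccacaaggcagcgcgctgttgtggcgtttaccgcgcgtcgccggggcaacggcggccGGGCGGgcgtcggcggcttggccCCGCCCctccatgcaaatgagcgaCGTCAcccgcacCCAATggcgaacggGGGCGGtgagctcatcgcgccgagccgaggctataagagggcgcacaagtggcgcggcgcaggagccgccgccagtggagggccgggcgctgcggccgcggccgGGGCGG

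The motifs were searched on both strands, with positions counted from 1 at the annotated start and from -1 just before it. The core of the cAMP response element (CRE), TGACG, was found in all 6 promoters, and in 24.6% of all 35116 promoter windows of the same length. In FOS it lay at -64 to -60 and in FOSB at -60 to -56, with a TATA box (TATAAA, in 11.5% of all windows) at -33 to -28 in FOS and at -30 to -25 in FOSB. JUNB also held this TATA box, at -31 to -26, and its CRE core lay at -137 to -133. JUN held TGACATCA, the AP-1 site through which JUN is known to regulate its own gene, at -67 to -60, and 2.61% of all windows held this motif. JUN alone among the 6 held a pair of inward-facing heat shock element units (GAANNTTC, in 6.77% of all windows), at -150 to -143. The outward-facing pair (TTCNNGAA, in 7.74% of windows) was in none of the 6. JUND held the full CRE, TGACGTCA, at -200 to -193, which contains a pair of CRE cores and was found in 1.85% of windows. JUND also had 6 GC boxes (GGGCGG, in 45% of windows), whereas FOSB and JUN had 2 each, FOS and FOSL2 1 each and JUNB none. FOSL2 was the only one of the 6 with the canonical AP-1 site TGANTCA, at 5 to 11, a motif in 7.71% of windows. A CCAAT box (in 34.6% of windows) was found in JUN, JUNB and JUND, and an ETS core (CCGGAA, in 17.2%) in FOSB. The CArG box bound by the serum response factor was in none of these windows and in 1.29% of all. The windows begin 250 bases before the start, so a CArG box further upstream would not have been found. All motifs named here are matches of letters and not sites shown to be bound.

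**Figure D1:**
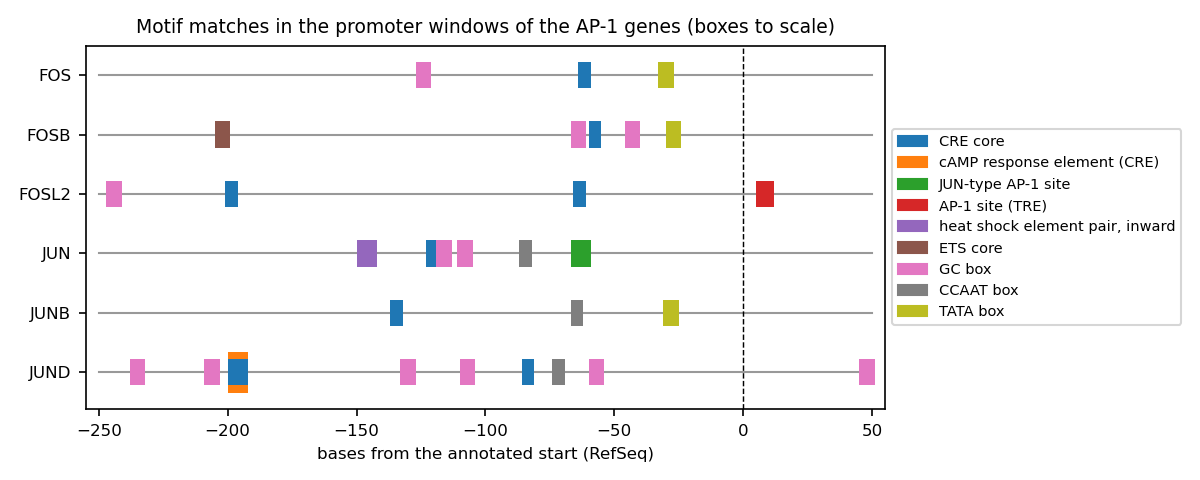
Positions of motif matches in the promoter windows of 6 AP-1 genes. The x axis gives bases from the annotated start (dashed line), the boxes are drawn to the length of each motif, and colours name the motifs. All 6 windows hold a CRE core, and the pair of heat shock element units is seen in JUN.

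Values were log2 MAS5 signals, a scale on which a difference of 1 is a factor of 2, and each array had been scaled by the authors to the same trimmed mean. A difference counted as called when limma gave an adjusted p below 0.05, with Benjamini-Hochberg adjustment over all 54613 probe sets. HSPA6, a chaperone gene that is transcribed after heat, served as the check of the labels. It rose by 8.77 ± 0.30 (SE) after heat shock with an adjusted p of 1.01e-08. After nsEP it differed from sham by 1.39 ± 0.30, not called (adjusted p = 0.208). HPRT1, a reference gene, differed from sham by 0.03 after nsEP and 0.31 after heat, neither called. The median probe set lay 0.18 above sham after heat shock and 0.01 below sham after nsEP. When arrays were scaled instead to the poly-A RNAs spiked into each sample these medians were -0.85 and -0.09, and calls after heat went from 987 higher and 1289 lower to 157 higher and 3605 lower. The array of nsEP replicate 3 stood apart on the second principal component, at -173 where the other 8 lay between -30.6 and 62.6. T cell markers were present, with 13 to 14 of 14 measured genes no dimmer than the median probe set in each group. CD2, CD28 and TRAT1 were called lower after heat, where 3.99% of all genes were, and none was called after nsEP. After nsEP 0.0506% of all genes were called higher and 0.0101% lower, so no call in a list this short says little. The CD28 call was made in 4 of 6 fits that left out 1 array. As the mean over its probe sets CD28 was at -0.52, not called. Of 8 myeloid markers 2 to 3 were no dimmer than the median probe set. Their summed signal was 374 to 417 in sham, 406 to 456 in nsEP and 634 to 851 in heat shock arrays. CD14 was called higher after heat, where 1.72% of all genes were. Its mean log2 signal went from 2.29 in sham, within the dimmest quartile, to 7.07. Of 6 B cell markers 4 were as bright in every group, and none was called. No marker was at 0, and the part of other cell types in the results was not tested. The material was bulk RNA, in which fewer cells and less RNA per cell cannot be told apart. By the study's viability assay most Jurkat cells were no longer viable 4 h after the pulses, when RNA was collected. The part of this loss in the nsEP values was not tested.

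Which AP-1 transcripts differed 4 h after the pulses was read from nsEP against sham. FOS, FOSB, JUN and JUND rose, and none of the 7 genes fell. FOSL1, FOSL2 and JUNB were not called. The share of all genes called higher in this comparison was 0.0506% and the share called lower was 0.0101%, beside 4 of 7 and 0 of 7 members. Over all 17 probe sets of the family 7 were called higher and 0 lower, where 0.0513% and 0.00732% of all probe sets were. The median log2 ratio of the 7 genes was 1.31, with a range from -0.32 to 7.27, and that of all genes was -0.02.

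Heat shock was compared with sham to set the pulses beside a known stress, and the same 4 genes were called higher. Again no member was called lower. Of all genes 1.72% were called higher and 3.99% lower in this comparison. Over probe sets 9 of 17 were called higher and 0 lower, beside 1.81% and 2.36% of all. The median log2 ratio of the 7 genes was 1.42, with a range from -0.55 to 9.20, and that of all genes was 0.14. Both comparisons used the same 3 sham arrays, so their calls are not independent of each other.

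**Figure D2:**
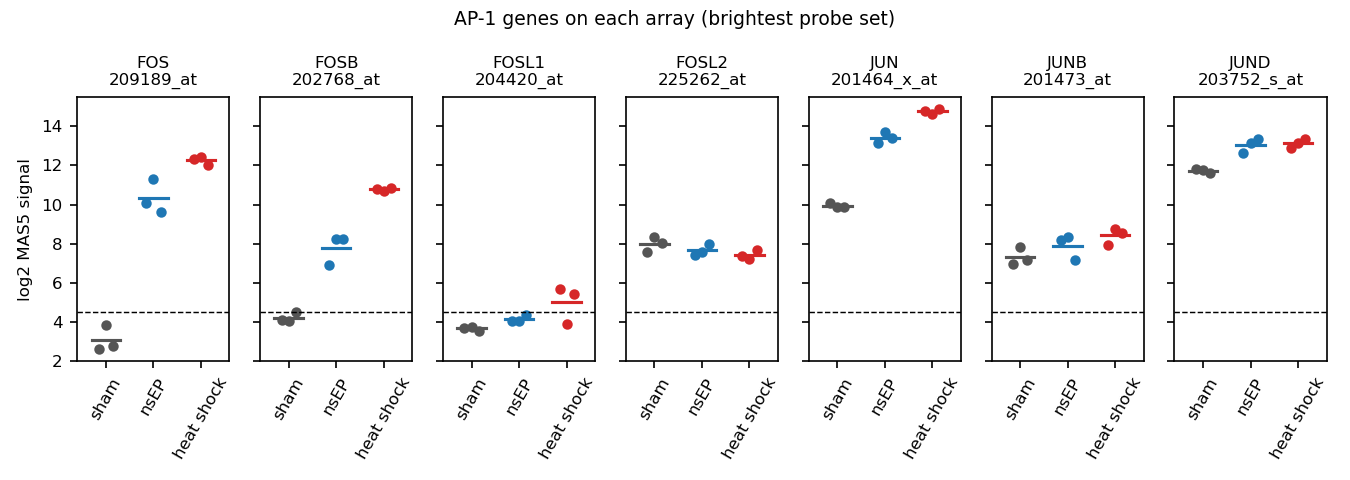
Log2 MAS5 signal of the 7 AP-1 genes on each of the 9 arrays, at the brightest probe set of each gene. Points are arrays, horizontal bars are means of 3 arrays, and the dashed line at 4.48 bounds the dimmest quartile of probe sets. FOS, FOSB and JUN form 3 separate steps from sham to nsEP to heat shock, whereas JUND separates from sham but not between the exposures.

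FOS codes for the founding member of its family, a partner of JUN with no steady expression in resting cells. Its log2 signal at 209189_at was 2.61, 3.84 and 2.77 in sham replicates 1 to 3, 10.10, 11.29 and 9.64 in nsEP replicates and 12.35, 12.44 and 12.00 in heat shock replicates. In MAS5 units the sham arrays read 6.1, 14.3 and 6.8 and the lowest nsEP array read 796. The 3 groups did not overlap, and FOS was among the dimmest quartile of signals on all sham arrays. FOS rose by 7.27 ± 0.40 on the log2 scale after nsEP (SE of the fit, n = 3 against 3, adjusted p = 3.25e-06) and by 9.20 ± 0.40 after heat (adjusted p = 5.96e-08). These sizes rest on a sham signal not shown to be above background, since detection calls were not used here. With 32 signal units added to every value before the log2, the rises were 5.02 and 6.92, and with 128 units they were 3.39 and 5.21, all still called.

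FOSB, a close relative of FOS, moved in the same order with smaller ratios. At 202768_at the sham arrays read 4.10, 4.05 and 4.48, the nsEP arrays 6.93, 8.22 and 8.22 and the heat shock arrays 10.79, 10.69 and 10.85. Every sham array was again in the dimmest quartile, nsEP replicate 1 was the lowest of its group, and no groups overlapped. The rise was 3.58 ± 0.34 after nsEP (adjusted p = 0.000729) and 6.57 ± 0.34 after heat (adjusted p = 2.56e-07). With 32 units added the rises were 2.34 and 5.14, both called. With 128 units added the nsEP rise was 1.28 and was no longer called (adjusted p = 0.0829).

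**Figure D3:**
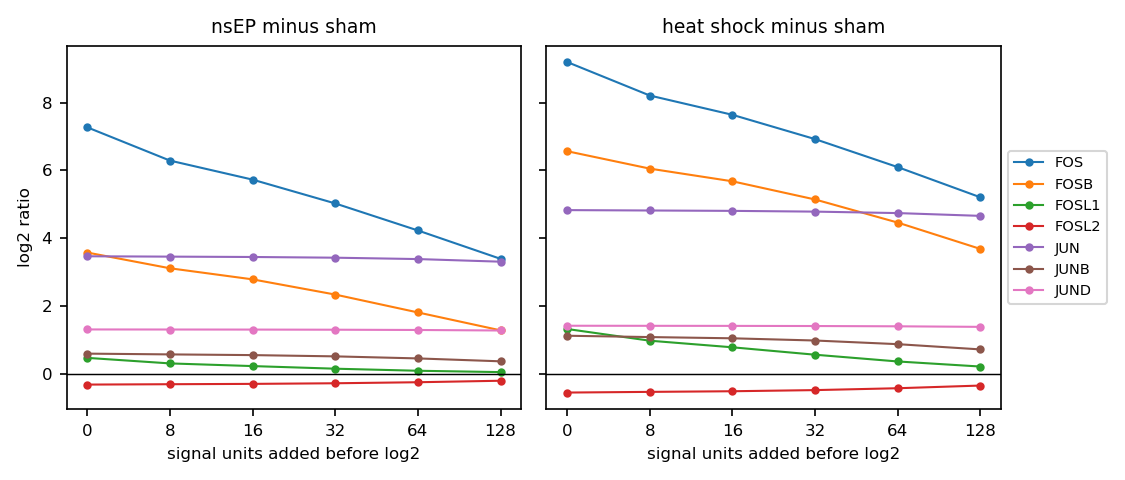
Log2 ratio of each AP-1 gene to sham when 0 to 128 signal units were added to every value before the log2 (x axis, steps not to scale), for nsEP on the left and heat shock on the right. The ratios of FOS and FOSB shrink with the amount added, from 7.27 to 3.39 and from 3.58 to 1.28 after nsEP, whereas those of JUN and JUND stay nearly level.

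FOSL1 and FOSL2 code for Fra-1 and Fra-2, FOS relatives without the strong activation domain of FOS. FOSL1 (204420_at) read 3.70, 3.74 and 3.55 in sham, 4.03, 4.05 and 4.32 in nsEP and 5.65, 3.89 and 5.42 in heat shock arrays. All sham and nsEP arrays lay in the dimmest quartile, and heat shock replicate 2 lay above all sham arrays but below all nsEP arrays. The ratios to sham were 0.47 (95% interval -0.95 to 1.89) after nsEP and 1.32 (-0.10 to 2.74) after heat, with adjusted p of 0.949 and 0.316. At the brightest probe set of FOSL2, 225262_at, the signals in MAS5 units were 191.9, 320.8 and 257.8 in sham, 169.5, 189.2 and 255.4 in nsEP and 166.5, 150.6 and 200.3 in heat shock arrays. The groups overlapped, and the log2 ratios were -0.32 (-0.91 to 0.28) and -0.55 (-1.15 to 0.04), neither called.

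The probe sets of FOSL2 did not give 1 answer. At 228188_at, sham read 5.36, 6.47 and 6.42, nsEP 6.38, 7.09 and 6.89 and heat shock 7.92, 7.85 and 7.59. This probe set rose by 1.70 ± 0.37 after heat (adjusted p = 0.0223), with all heat shock arrays above all others, and differed from sham by 0.70 ± 0.37 after nsEP (adjusted p = 0.772). Averaged over all 5 FOSL2 probe sets, the ratios were 0.40 after nsEP and 0.20 after heat, opposite in sign to the brightest probe set and not called. The other 3 probe sets, 205409_at, 218881_s_at and 218880_at, had SDs within a group of 0.68 to 1.90, and their ratios to sham ran from -0.21 to 1.04 with none called.

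JUN, which like the other JUN proteins can pair without a FOS partner, is the main target of the JNK stress kinases. Its brightest probe set, 201464_x_at, read 10.08, 9.90 and 9.85 in sham, 13.13, 13.69 and 13.41 in nsEP and 14.80, 14.65 and 14.87 in heat shock arrays. The 3 groups were far apart relative to their spread, with SDs of 0.12, 0.28 and 0.11. JUN rose by 3.47 ± 0.16 after nsEP, 11.1-fold (adjusted p = 1.02e-06), and by 4.83 ± 0.16 after heat, 28.4-fold (adjusted p = 1.01e-08). By quantitative PCR the study found JUN higher in pulsed Jurkat cells as well, but by a smaller factor than on its arrays. Because the sham signal was bright, adding 32 units changed these ratios only to 3.42 and 4.78.

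All 4 JUN probe sets were called in both comparisons, and their sizes differed. In MAS5 units 201466_s_at read 213, 394 and 213 in sham, 1429, 1942 and 1393 in nsEP and 18790, 17690 and 22120 in heat shock arrays. On the log2 scale it rose by 2.59 ± 0.23 after nsEP and by 6.22 ± 0.23 after heat, the latter 74.4-fold. At 213281_at the rises were 2.84 ± 0.23 and 4.72 ± 0.23, and at 201465_s_at 3.61 ± 0.34 and 5.32 ± 0.34. After nsEP the rises thus ran from 2.59 to 3.61, and after heat from 4.72 to 6.22. The suffix x_at marks a set with probes that may also match other sequences, and s_at a set that matches several transcripts.

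JUNB, which codes for a weaker activator that restrains JUN in many settings, was not called in either comparison. At 201473_at it read 6.95, 7.82 and 7.14 in sham, 8.19, 8.34 and 7.16 in nsEP and 7.94, 8.77 and 8.56 in heat shock arrays. The low nsEP array was replicate 3, which fell inside the sham range, whereas all heat shock arrays were above all sham arrays. The ratios were 0.59 (-0.18 to 1.37) after nsEP, adjusted p = 0.812, and 1.12 (0.35 to 1.90) after heat, adjusted p = 0.109. When 1 array was left out the nsEP ratio of JUNB ran from 0.37 to 0.96 and was never called.

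JUND codes for the member that resting cells hold in quantity. At 203752_s_at it read 11.82, 11.79 and 11.60 in sham, 12.63, 13.17 and 13.33 in nsEP and 12.92, 13.16 and 13.38 in heat shock arrays. Both exposed groups lay above sham on every array and overlapped each other. The rise was 1.31 ± 0.19 after nsEP, 2.48-fold (adjusted p = 0.0310), and 1.42 ± 0.19 after heat, 2.67-fold (adjusted p = 0.00120). The nsEP call was the least secure of the 4: it ended when any 1 of the 3 sham arrays, nsEP replicate 2 or nsEP replicate 3 was left out, with adjusted p of 0.0639 to 0.209, although the ratio stayed between 1.17 and 1.35. Scaled to the poly-A spike-ins, JUND differed from sham by 1.23 after nsEP and by 0.39 after heat, neither called.

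Of the other JUND probe sets, 203751_x_at read 5.57, 6.62 and 5.78 in sham, 7.12, 7.57 and 7.04 in nsEP and 7.86, 8.06 and 7.61 in heat shock arrays. The groups did not overlap, and this probe set rose by 1.85 ± 0.34 after heat (adjusted p = 0.00895) but was not called after nsEP, at 1.25 ± 0.34 (adjusted p = 0.381). The ratios at 214326_x_at were 1.11 and 2.25, and those at 229117_s_at were -0.22 and 0.23, none of them called. Of these 3 other JUND probe sets 1 was thus called higher after heat and none after nsEP. Not being called did not mean a ratio near 0. The 95% interval was 0.51 to 2.00 at 203751_x_at after nsEP and 0.68 to 3.83 at 214326_x_at after heat.

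**Figure D4:**
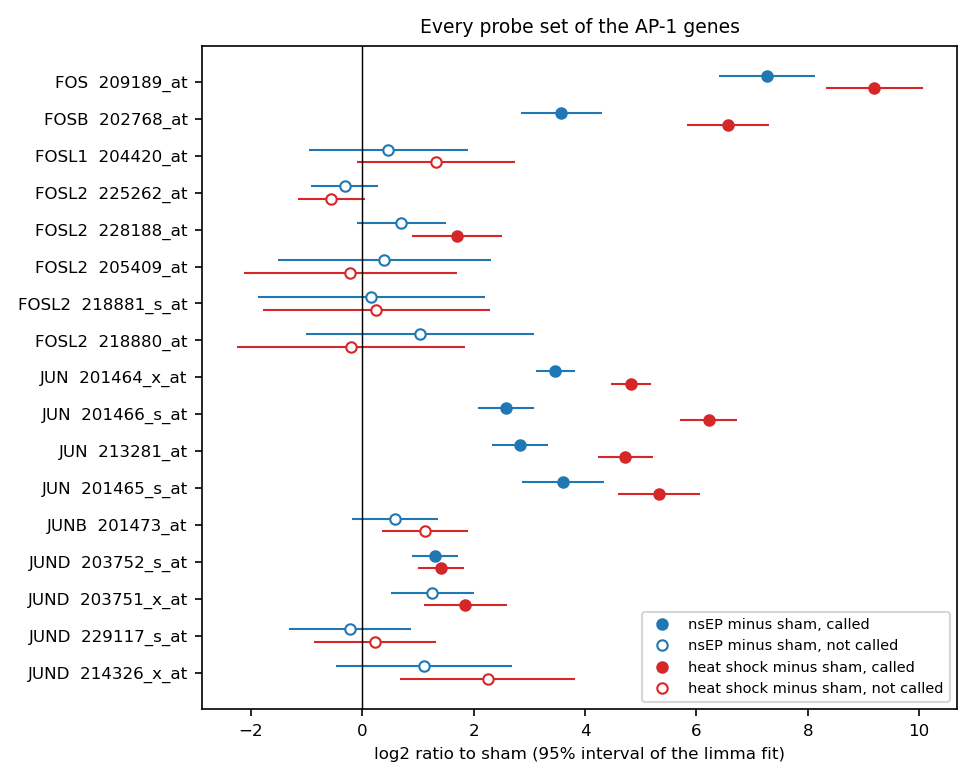
Log2 ratio to sham of all 17 probe sets of the AP-1 genes, after nsEP and after heat shock, with the 95% interval of the limma fit. Filled points were called at an adjusted p under 0.05 over all probe sets and open points were not. All 4 JUN probe sets are called under both exposures, whereas FOSL2 and JUND have probe sets on both sides of the threshold.

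The exposures were also compared directly. FOS, FOSB and JUN were lower after nsEP than after heat shock, and none of the 7 genes was higher. Of all genes 2.16% were called lower and 3.83% higher in this comparison, and over probe sets 6 of 17 members were called lower and 0 higher, beside 2.65% and 2.31% of all. FOSB showed the widest gap, 7.94-fold (log2 ratio -2.99, SE 0.34, adjusted p = 0.000344). FOS was 3.80-fold lower (log2 ratio -1.93, SE 0.40, adjusted p = 0.0150) and JUN 2.57-fold lower (log2 ratio -1.36, SE 0.16, adjusted p = 0.000523). For JUN all 4 probe sets were called, from 2.57-fold at 201464_x_at to 12.4-fold at 201466_s_at.

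JUND did not separate the exposures, with a log2 ratio of nsEP to heat of -0.11 and an interval of -0.53 to 0.31. The ratios of JUNB, FOSL1 and FOSL2 were -0.53 (-1.30 to 0.25), -0.85 (-2.27 to 0.57) and 0.24 (-0.36 to 0.83). In the order of levels, heat shock and nsEP were thus neighbours whose difference did not pass the test for JUND, JUNB, FOSL1 and FOSL2, and did pass it for FOS, FOSB and JUN.

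The size of the difference between nsEP and heat depended on how the arrays were made comparable. After scaling to the poly-A spike-ins the ratio was -2.04 for FOSB, still called (adjusted p = 0.0372), but -0.97 for FOS and -0.41 for JUN, no longer called, and the ratios of FOSL1, JUNB and JUND turned positive, at 0.10, 0.42 and 0.84. The spike-in signal itself varied between arrays, from a mean log2 of 9.74 to 11.2 over the sham and nsEP arrays and from 11.1 to 11.7 over the heat shock arrays. With quantile normalization and with centring on array medians FOS, FOSB and JUN were all still lower after nsEP and called. The FOS call also ended when nsEP replicate 1, heat shock replicate 1 or heat shock replicate 2 was left out, at adjusted p of 0.0542, 0.0665 and 0.0636.

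**Figure D5:**
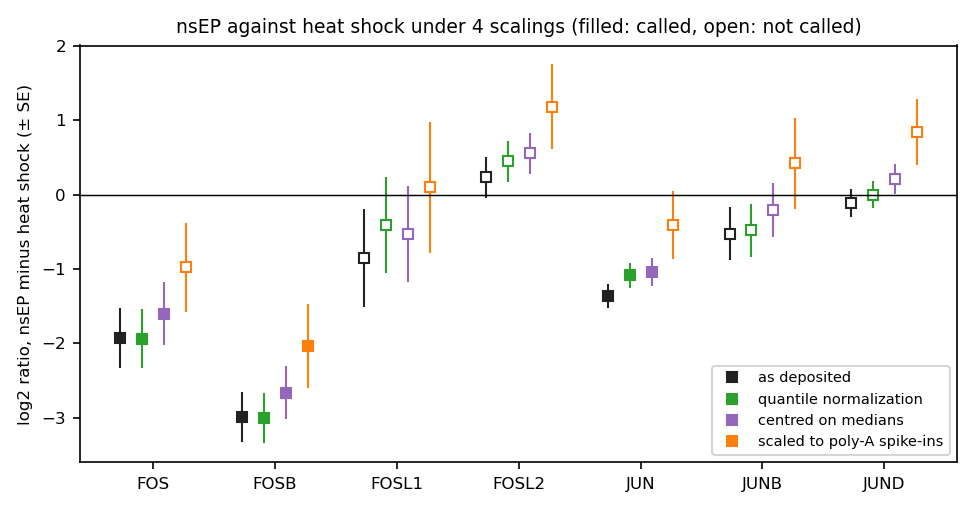
Log2 ratio of nsEP to heat shock (± SE) for the 7 AP-1 genes under 4 ways of scaling the arrays. Filled squares were called and open squares were not. FOSB lies below 0 and is called under all 4, FOS and JUN are called under all but the poly-A scaling, and JUND crosses 0.

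The methods' t-test with the thresholds stated for the study, a log2 ratio of at least 2 in size and a p of at most 0.05, was run on the same values. It passed 6 of the 17 member probe sets as higher after nsEP, where 0.394% of all passed, and 7 after heat, where 1.84% did. No member probe set passed as lower, where 0.377% of all did after nsEP and 0.289% after heat. Those after nsEP were FOS, FOSB and the 4 of JUN, and after heat 214326_x_at of JUND was added. Between the exposures 2 were lower after nsEP, FOSB and 201466_s_at of JUN, beside 1.99% of all, and none was higher, beside 0.308%. After Benjamini-Hochberg adjustment of the same test 0 member probe sets passed for nsEP (9 had an unadjusted p under 0.05, and limma called 7), 6 for heat and 1 between the exposures.

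The wider pathway was read from lists of genes known to partner, activate, degrade or respond to AP-1. Of 30 measured bZIP partners, proteins with the same kind of zipper, 1 was called higher after nsEP, which was ATF3, where 0.0506% of all genes were. ATF3, a stress-induced repressor that pairs with JUN, rose by 2.30 ± 0.21 after nsEP (adjusted p = 0.000592) and by 2.76 ± 0.21 after heat (adjusted p = 1.43e-05). After nsEP it was not called with poly-A scaling (2.22), as the mean over its probe sets (1.68), without the intensity trend or by the methods' t-test after adjustment. After heat 3 partners rose and 2 fell, beside 1.72% and 3.99% of all genes. CEBPD, a C/EBP factor of the acute phase response, rose by 2.91 ± 0.42, MAFF, a small MAF protein, by 2.09 ± 0.25, and ATF5 fell by 1.35 (SE 0.25). CREB1, the CRE-binding protein, also fell by 1.09 (SE 0.19) and is named here after its value was seen. With poly-A scaling the heat ratios of CEBPD and MAFF were 1.88 and 1.06, not called, and as means over their probe sets those of CEBPD, ATF5 and CREB1 were 1.92, -0.46 and -0.22, not called. The list medians were 0.11 after nsEP and 0.02 after heat, beside -0.02 and 0.14 for all genes.

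Of 19 measured kinases upstream of AP-1, 0 transcripts were called by limma in each of the 3 comparisons. Of all genes 0.0506% were called higher and 0.0101% lower after nsEP, and 1.72% and 3.99% after heat. Between the exposures the shares were 3.83% and 2.16%. The same shares apply to the other lists of this paragraph. After nsEP so few genes were called that a count of 0 in a list this short says little. At an unadjusted p under 0.05 the numbers of kinases were 0 after nsEP, 2 after heat and 5 between the exposures. After heat 2 were called lower with median centring and 1 each with poly-A scaling and with array weights, and between the exposures 1 to 3 were called with median centring, with array weights, as means over probe sets and without nsEP replicate 3. The smallest p after nsEP belonged to RPS6KA4 (-0.54 ± 0.25) and MAP2K5 (0.30 ± 0.16), and after heat to RPS6KA3 (-0.63 ± 0.20) and MAPK9, which codes for the kinase JNK2 (0.60 ± 0.19). Of 19 measured transcription factors known to act on the FOS and JUN promoters 0 were called after nsEP, none of them at an unadjusted p under 0.05 either. After heat ELK4, an ETS partner of the serum response factor, fell by 1.36 (SE 0.19, adjusted p = 0.00129) and MRTFB, a coactivator of that factor, fell by 0.66 (SE 0.16, adjusted p = 0.0329), the latter in only 1 of 6 fits that left out 1 array. As means over their probe sets neither was called, at -0.02 for ELK4 and 0.63 for MRTFB, and neither passed the methods' t-test after adjustment. Among 17 genes of mRNA and protein turnover, ZFP36L1, which binds AU-rich elements in short-lived messages, rose by 1.20 ± 0.19 after heat. It differed from sham by 0.60 ± 0.19 after nsEP, not called, and 0 of the list were called there (1 at an unadjusted p under 0.05). With poly-A scaling the heat ratio of ZFP36L1 was 0.17 and as the mean over its probe sets 0.68, neither called.

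Of 33 measured genes known as AP-1 targets, 3 were called higher after heat, beside 1.72% of all genes, and 0 were called by limma after nsEP (3 at an unadjusted p under 0.05), beside 0.0506%. After nsEP 1 was called higher with a replicate block, with dim probe sets left out or without sham replicate 2. After nsEP they had a list median of 0.32 beside -0.02 for all genes. The smallest p there belonged to CD69, an early activation marker of T cells, at 2.13 ± 0.35 (adjusted p = 0.0654), and to DUSP1, a phosphatase that switches MAPKs off, at 1.25 ± 0.25 (adjusted p = 0.170). After heat DUSP1 rose by 3.38 ± 0.25, VEGFA, an angiogenic growth factor, by 2.65 ± 0.25 and HMOX1, the inducible haem oxygenase, by 1.47 ± 0.32, and the list median was 0.40 beside 0.14. The HMOX1 call ended whenever any 1 of the 6 arrays was left out.

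The direct test called 3 of these targets higher and 2 lower after nsEP than after heat, beside 3.83% and 2.16% of all genes. CD69 was 2.43 ± 0.35 higher after nsEP than after heat (adjusted p = 0.00170), from mean log2 signals of 9.18 in sham, 11.31 in nsEP and 8.88 in heat shock arrays. GCLM, the modifier subunit of the enzyme that starts glutathione synthesis, was 0.76 ± 0.18 higher after nsEP (adjusted p = 0.0283). DUSP1 and VEGFA were lower after nsEP, with log2 ratios of -2.13 (SE 0.25, adjusted p = 0.000503) and -1.62 (SE 0.25, adjusted p = 0.00261), both not called with poly-A scaling, at -1.17 and -0.66. The calls of CD69, DUSP1 and VEGFA were made in all 6 fits that left out 1 array, and that of GCLM in 1 of the 6. The fifth called target was GCLC, the catalytic subunit of the same enzyme, at 0.71 ± 0.16 (adjusted p = 0.0205), named here after its value was seen. The GCLC call was made in 3 of the 6 fits. As the mean over its probe sets GCLC was at 0.50, not called. Among the bZIP partners 3 were higher after nsEP than after heat, CREB5, ATF5 and CREB1, and MAFF was lower, whereas among the upstream factors ELK4 (1.18 ± 0.19) and NFATC1 (0.62 ± 0.16) were higher. Of these, the ELK4 call was made in all 6 fits that left out 1 array, MAFF in 3, CREB1 in 2 and CREB5, ATF5 and NFATC1 in 1 each. As means over probe sets none of the 6 was called, with ELK4 at 0.08 and NFATC1 at -0.10, and the ATF5 and NFATC1 calls also ended with a replicate block.

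FOS and JUN correlated with each other at 0.989 over the 9 arrays. Among 13447 genes outside the family, those most like FOS were EGR1 (Pearson r = 0.995), ATF3 (0.986) and FBN2 (0.976). For JUN they were EGR1 (0.991), PHLDA1 (0.980) and ATF3 (0.977). The arrays fall into 3 groups, so these values chiefly describe how the group means line up. They are the highest of the search and were not tested. EGR1, a zinc finger factor of the immediate early class, stood 4.94 above sham after nsEP and 6.43 after heat. FBN2, a fibrillin of the extracellular matrix, stood 1.65 and 2.04 above sham.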

How the data were processed

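Transcripts of Jurkat cells were measured on 9 Affymetrix human genome arrays, 3 sham, 3 nsEP and 3 heat shock, grouped by the sample titles. The deposited values were log2 MAS5 signals computed by the authors, where a MAS5 signal is a summary of the matched and mismatched probes of each probe set. Turned back to signals, every array had a trimmed mean between 499.91 and 499.93, so a change shared by all transcripts would have been scaled away. MAS5 sets no noise floor, which widens the scatter of dim probe sets on the log2 scale. Detection calls were not used here, and precision is limited by the number of arrays.

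Of 54675 probe sets 62 controls were set aside. Symbols came from the platform annotation, with 41091 probe sets under 1 symbol, 1801 under several, which named no gene, and 11721 not listed there. All 9 arrays entered 1 fit in limma 3.58.1 (R 4.3.3) with 1 mean per group, an intensity trend in the prior variance, two-sided moderated tests (12.5 degrees of freedom) and Benjamini-Hochberg adjustment over all 54613 probe sets. The fit was tested on simulated data. The methods' t-test was run as an alternative, together with other scalings, added signal units, left-out arrays, array weights and a replicate block. Values with 8, 16, 64 and 128 units added were chosen after seeing the data. Where an arm was left with 2 arrays the pooled spread was used.

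The members and the gene lists were chosen with earlier results of these data known. All members were named at every probe set, from each list up to 4 called genes with the widest ratio in a comparison or else 2 with the smallest p, 3 genes most like FOS and like JUN, and HSPA6 and HPRT1. Promoters and motif shares came from RefSeq (GRCh38.p14) and were read with Python 3.11.15.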

Additional observations from a re-analysis of the deposited data

How the results depend on the processing

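Over 21 alternatives FOS and JUN were called higher after nsEP in 20 each, FOSB in 17 and JUND in 10, and after heat FOS, FOSB and JUN were called in all 21 and JUND in 19. The number of the 7 genes called higher after nsEP was 4 as reported and 2 without the intensity trend, 2 when only the 6 arrays of the comparison were fitted, 2 with 128 signal units added and 0 by the methods' t-test with Benjamini-Hochberg adjustment, while leaving out 1 array gave 3 to 4. After heat it was 4, and 3 with poly-A scaling and by that t-test, in both of which JUND was lost. For nsEP against heat it was 3, and 2 without the trend (FOS lost, adjusted p = 0.0971), 1 with poly-A scaling, 0 by the t-test and 2 to 3 when 1 array was left out. The FOSL2 ratios turned from negative to 0.40 after nsEP and 0.20 after heat as the mean over all its probe sets. For nsEP against heat, the ratios that turned positive were those of FOSL1 (0.10), JUNB (0.42) and JUND (0.84) with poly-A scaling, and of JUND with quantile normalization (0.00208), with median centring (0.21), without nsEP replicate 1 (0.10) and without heat shock replicate 3 (0.00362), the range over left-out arrays being -0.25 to 0.10. The cause was not tested. With a replicate block the counts of called members were 4, 4 and 3 as before and no member's call changed. Whether the replicate numbers pair the arrays is not known. The titles number the biological replicates 1 to 3 in each group but do not say that same-numbered arrays belong together. Deviations of same-numbered arrays correlated at -0.14 to 0.15, which cannot settle this with 3 arrays a group. With poly-A scaling called probe sets numbered 12 for nsEP (12 higher, 0 lower, against 28 and 4) and for nsEP against heat 1781 higher and 139 lower, against 1261 and 1446. Median centring gave 714 higher and 3857 lower after heat and 3819 higher and 973 lower between the exposures. Probe sets called after nsEP numbered 32, and 7 without the trend, 14 with the 6 arrays, 52 with array weights, 61 with dim probe sets left out, 19 with 128 units added and 15 to 36 when 1 array was left out. What the sham arrays of FOS, FOSB and FOSL1 can show is limited by signals in the dimmest quartile.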

Other observations

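JUN probe sets differed in how far they followed the brightest one. The signal at 201466_s_at minus that at 201464_x_at was -2.35, -1.27 and -2.12 in sham, -2.65, -2.77 and -2.97 in nsEP and -0.60, -0.54 and -0.44 in heat shock arrays on the log2 scale. The 3 groups did not overlap. The change was -0.88 for nsEP minus sham, 1.39 for heat minus sham and -2.27 for nsEP minus heat. Each had an exact two-sided permutation p of 0.1, the smallest that 3 arrays against 3 allow. For 213281_at and 201465_s_at nsEP minus heat was -0.53 and -0.35 (exact permutation p of 0.2 and 0.9). Their nsEP minus sham was -0.63 and 0.14 (0.1 and 0.9), and their heat minus sham -0.10 and 0.49 (0.8 and 0.1). FOSL2 gave a similar case, in which 228188_at minus 225262_at went from -2.23, -1.86 and -1.59 in sham to 0.54, 0.61 and -0.05 after heat, a change of 2.26 (exact permutation p of 0.1). After nsEP the change from sham was 1.02, with the same p.

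The spread within a group was wider after nsEP than after heat for 6 of the 7 genes, FOSL1 being the exception. The SD of FOS was 0.85 against 0.23, that of FOSB 0.75 against 0.08 and that of JUN 0.28 against 0.11. Over all probe sets at or above the median signal the median SD was 0.30 after nsEP and 0.23 after heat. A wider spread after nsEP was thus not particular to these genes. The array of nsEP replicate 3 held the highest GAPDH 3′ minus 5′ difference of the 9, at 0.56, and its ACTB difference was 1.24, where sham replicate 1 had 1.26. Its part in the spread was not tested.

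The nearest measured genes on either side of each member, 14 in all by the RefSeq gene order, were not called after nsEP or after heat. Calls over all genes were 0.0506% higher and 0.0101% lower after nsEP, and 1.72% and 3.99% after heat. The absence of calls among 14 genes therefore says little. Their ratios ran from -1.14 to 1.48 after nsEP and from -0.38 to 1.55 after heat. The highest after nsEP, LINC01220, and the highest after heat, LOC101926907, had sham means in the dimmest quartile, at 1.79 and 4.00. FOSL2-AS1, the antisense neighbour of FOSL2, was looked at after seeing the data and differed from sham by -0.87 after nsEP and -0.52 after heat, neither called.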
